A study of Mus musculus with 2 samples.

Results

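The 9 genes described here are globins and erythroid genes, chosen by name from the 43346 genes of the deposited mouse gene tables. They are the adult alpha globins Hba-a1 and Hba-a2, the adult beta globins Hbb-bs and Hbb-bt, the embryonic globins Hbb-y, Hbb-bh1 and Hba-x, the haem synthesis gene Alas2 and the red cell membrane gene Slc4a1. They were measured by stranded, paired-end sequencing of polyadenylated RNA from central nervous tissue of mouse embryos (strain C57BL/6J, embryonic day 18), pooled over the males and females of a litter. There was 1 group with 2 libraries, labelled as biological replicates 1 and 2, and no treated, mutant or control group. The labels name no sort and no removal of blood, and in such bulk RNA a smaller number of cells of a type and less RNA per cell cannot be told apart. With 2 libraries of 1 group there is no test between conditions, and the spread between them may be partly technical.

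Haemoglobin is a tetramer of alpha-like and beta-like globin chains, each holding a haem group, and red cells are filled with it. In the mouse, the first red cells come from the yolk sac and use the embryonic chains encoded by Hba-x, Hbb-y and Hbb-bh1. Later red cells, made in the fetal liver and then the bone marrow, use the adult chains encoded by Hba-a1 and Hba-a2 and, in C57BL/6J mice, by Hbb-bs and Hbb-bt. The alpha-like genes form a cluster on chromosome 11 and the beta-like genes a cluster on chromosome 7. Alas2 encodes the erythroid form of the first enzyme of haem synthesis, and Slc4a1 encodes band 3, the anion exchanger of the red cell membrane.

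The adult globin genes come in pairs of nearly identical copies, and this sets what short reads can tell apart. The coding sequences of Hba-a1 and Hba-a2 (426 bases without the stop codon) differed at 1 base in the GENCODE M21 transcripts, written C381T with Hba-a1 first and positions counted from the A of the start codon. Those of Hbb-bs and Hbb-bt (441 bases) also differed at 1 base, C417T with Hbb-bs first. Both bases lie in exon 3. The stretches around them are shown because they hold the only coding base that separates the copies of a pair. The transcripts of a pair also differ outside the coding sequence. The capital marks the base that differs.
Hba-a1: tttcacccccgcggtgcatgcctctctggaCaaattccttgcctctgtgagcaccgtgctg
Hba-a2: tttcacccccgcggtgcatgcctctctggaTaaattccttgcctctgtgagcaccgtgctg
Hbb-bs: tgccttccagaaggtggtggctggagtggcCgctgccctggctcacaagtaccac
Hbb-bt: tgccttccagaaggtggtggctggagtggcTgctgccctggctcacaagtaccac
On GRCm38 these run over chr11:32284313-32284373 and chr11:32297130-32297190 on the plus strand, and over chr7:103826668-103826722 and chr7:103812659-103812713 on the minus strand. The embryonic genes at the same coding positions are shown for contrast, with each base that differs from Hba-a1 (for Hba-x) or from Hbb-bs (for Hbb-y) in capitals.
Hba-x: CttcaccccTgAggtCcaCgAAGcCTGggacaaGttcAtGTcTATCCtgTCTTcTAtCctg
Hbb-y: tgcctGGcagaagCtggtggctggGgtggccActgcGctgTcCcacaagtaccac
These windows of Hba-x (chr11:32277930-32277990) and Hbb-y (chr7:103851877-103851931) held 27 and 8 differing bases. Over the whole coding sequence, identity was 61.7% between Hba-x and Hba-a1 and 74.4% between Hbb-y and Hbb-bs. Of all stretches of 101 bases, the read length, in the Hba-a2 transcript, 74.2% were found unchanged in the Hba-a1 transcript, and 56.3% of those of Hba-a1 were found in Hba-a2. The shares were 62.5% of Hbb-bs in Hbb-bt and 54.7% of Hbb-bt in Hbb-bs. These shares treat each read alone, and how often the other read of a pair tells the copies apart was not tested. No such stretch of Hbb-y, Hbb-bh1 or Hba-x was found unchanged in another of these genes. Stretches that match with a few differing bases were not searched.

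The stretch before the start of each gene was read from RefSeq (GRCm38.p6), which held 7 of the 9 genes (not Hbb-bh1 or Slc4a1). The alpha promoters could not separate the copies either: the 250 bases before the RefSeq starts of Hba-a1 and Hba-a2 shared an unbroken run of 247 bases. For Hba-a1 these bases include the beginning of the GENCODE transcript, which starts further upstream. Short windows around CCAAT, an element of many promoters, are shown because both alpha copies carry the same one and each beta-like gene its own; every match to the motifs searched is in capitals.
Hba-a2: gtagagcaagcacaaaccagCCAATgagaa
Hbb-bs: gagccaCACCCtggtaagggCCAATctgct
Hbb-bt: gggtaaCACCCtggcATTGGCCAATctgct
Hbb-y: aggaccacgggtcaggctgaCCAATagctt
These lie at chr11:32296381-32296410, chr7:103827995-103828024, chr7:103813989-103814018 and chr7:103853281-103853310. The Hbb-bs window lies inside the GENCODE span of that gene, chr7:103826534-103828096, since its RefSeq start is further in. CCAAT was searched on both strands (reverse complement ATTGG, which runs into CCAAT in Hbb-bt) and was in 5 of the 7 windows of 250 bases, against 33.8% of all 32851 promoters in the table. CACCC (reverse GGGTG), the core of sites bound by Klf1 and its relatives, was in 7 of 7, against 52.0% of all. GATAA (reverse TTATC), the core of GATA factor sites, was in 7 of 7, against 22.6%. TATAA (reverse TTATA) was in 6 of 7, against 22.8%, and in the 4 adult globins and Hba-x it began 27 to 30 bases before the start. These are matches of letters and were not tied to any measurement of binding.

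The libraries held 93979836 (replicate 1) and 137012773 (replicate 2) expected fragments on genes. Neural genes were present in both: Tubb3, a neuronal tubulin, stood at 2731 and 2430.2 TPM (the deposited level, scaled to transcript length and depth), Map2 at 371 and 373, Dcx at 200.4 and 189, and Sox2, a gene of neural precursors, at 39.4 and 37.5. Counting intervals and limits below cover counting error only.

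The 4 adult globins ranked among the abundant transcripts of this tissue. Hba-a2 (ENSMUSG00000069917, chr11:32296489-32297298) was at 1241 TPM in replicate 1 and 831 TPM in replicate 2, which placed it 81st and 127th of all genes. Hbb-bs (ENSMUSG00000052305, chr7:103826534-103828096) was at 991 and 891 TPM. Their ranges overlapped, with means of 1036 ± 290.2 and 941 ± 70.8 TPM (SD, n = 2). Hba-a1 (ENSMUSG00000069919, chr11:32283511-32284465) was at 538 and 346 TPM, and Hbb-bt (ENSMUSG00000073940, chr7:103812524-103813996) at 225 and 185 TPM. Replicate 1 was the higher library for each of the 4. Hba-a1 lay above Hbb-bt and below the leading pair in both libraries. The order within a pair of copies depends on the table used, as described below.

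**Figure D1:**
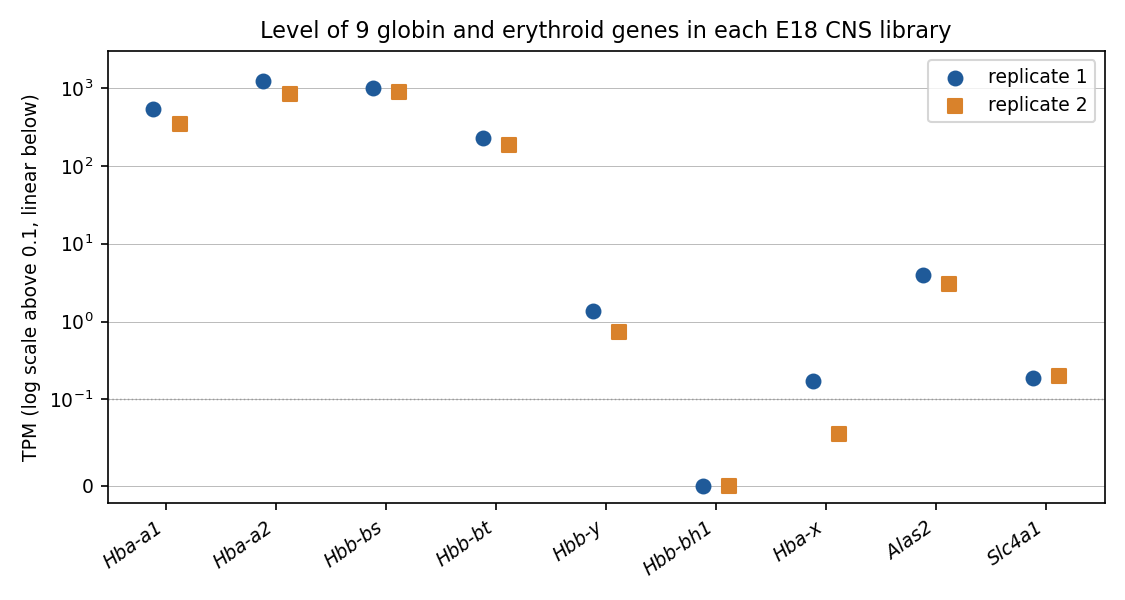
Level of each of the 9 genes in TPM (vertical axis, log scale above 0.1 and linear below) in replicate 1 (circles) and replicate 2 (squares). The 4 adult globins lie between 185 and 1241 TPM, while Alas2 is at 3.07 to 3.98 TPM and every other gene at or under 1.35 TPM.

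Summed over both copies, so that reads exchanged between copies stay in the sum, adult alpha globin was at 1779 TPM in replicate 1 and 1176 TPM in replicate 2. Adult beta globin was at 1216 and 1076 TPM. These sums still depend on the transcript, and so the length, to which reads were assigned. Alpha exceeded beta in both libraries, by a ratio of 1.46 in replicate 1 and 1.09 in replicate 2 (1.28 ± 0.262, SD, n = 2). The table of RPKM values (reads scaled to gene length and depth) that was made on the older mm9 assembly also had more alpha than beta, with ratios of 1.74 and 1.33 in its first and second value. That table does not say which value belongs to which library. In expected counts, which are not divided by length, the ratio was 0.977 and 0.773, since the beta transcripts are annotated as longer. In TPM and in expected counts replicate 2 had the lower ratio. All 7 globin genes together took 0.300% and 0.225% of TPM. They took 78781 and 91674 expected fragments, or 0.0838% (95% Clopper-Pearson interval 0.0832 to 0.0844) and 0.0669% (0.0665 to 0.0673) of those on genes.

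How the alpha signal was divided between Hba-a1 and Hba-a2 differed between the deposited tables. In the mm10 tables Hba-a2 exceeded Hba-a1 by ratios of 2.31 and 2.40 in TPM, from 26109.8 and 26704 expected fragments for Hba-a2 against 12802 and 13237 for Hba-a1. The authors' posterior SD of those counts was 129 and 132 fragments for either copy, far less than the gap. In the mm9 table the same genes were nearly level, Hba-a1 at 276 and 187 RPKM and Hba-a2 at 279 and 192 RPKM, with ratios of 1.01 and 1.03. For the beta pair, Hbb-bs exceeded Hbb-bt by 4.41 and 4.82 in TPM. The mm9 table had Hbb-bs at 208 and 187 RPKM and Hbb-bt at 111 and 98.7 RPKM, ratios of 1.87 and 1.90. Hbb-bs was thus the higher copy in both sources, by different factors, whereas a higher Hba-a2 was a feature of the mm10 tables.

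**Figure D2:**
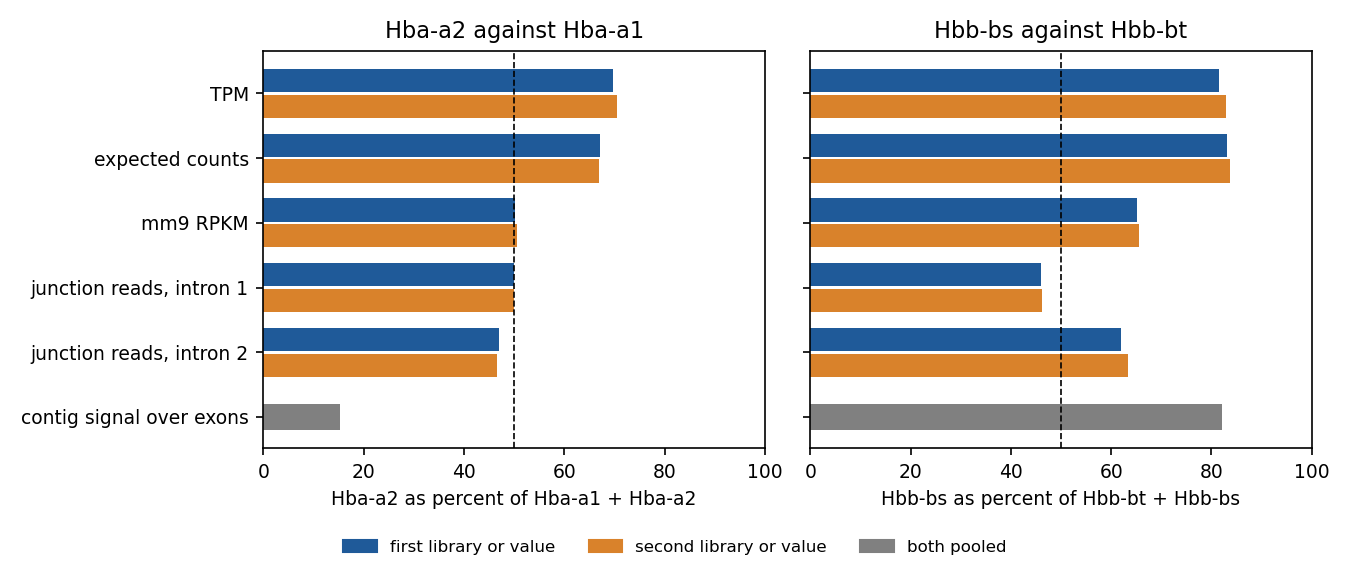
Share of Hba-a2 in the alpha pair (left) and of Hbb-bs in the beta pair (right), in percent, for each readout, with 1 bar per library or value and a grey bar where the file pools both. The dashed line marks equal shares; Hba-a2 runs from 15.2% in contig signal to 70.6% in TPM, and Hbb-bs from 46.1% to 83.7%.

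Junction reads, counted on mm9, were also compared between the copies. The first intron of Hba-a1 (chr11:32183802-32183923 on mm9) had 6707 and 7426 reads and that of Hba-a2 (chr11:32196619-32196740) 6724 and 7441. A junction that no annotation holds, from the donor of Hba-a1 to the acceptor of Hba-a2 over 12939 bases, had 6688 and 7418. These 3 counts were nearly equal. No stretch of 101 bases across this splice point differs between the copies. At the second intron, where 20 of 100 such stretches hold the base C381T, the Hba-a1 junction had 18568 and 17333 reads, the Hba-a2 junction 16440 and 15178, and the joining junction 16444 and 15188. The Hba-a2 count here matched the joining count to within 10 reads, and Hba-a1 was higher by 2128 and 2155 reads.

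In the beta pair, too, the joining count lay close to that of the lower copy, but the counts of the copies differed at both introns. At the second intron, Hbb-bt (chr7:110961299-110961952 on mm9) had 8677 and 11116 reads, the junction from Hbb-bs to Hbb-bt 8678 and 11127, and Hbb-bs (chr7:110975308-110975961) 14088 and 19151. The first intron had 9802 and 11723 reads in Hbb-bt, 8379 and 10072 in Hbb-bs, and 8374 and 10068 on the joining junction. Hbb-bs was thus ahead at intron 2 and behind at intron 1, although no stretch of 101 bases across either splice point differs between the coding copies. In all, 234 unannotated junctions joined Hba-a1 and Hba-a2, with 32.6% and 32.5% of the reads on junctions of the pair. Another 169 joined Hbb-bs and Hbb-bt, with 29.6% and 29.2%. How the authors counted reads that fit several places is not given in the sources used here, and the share of such reads in these counts was not tested.

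**Figure D3:**
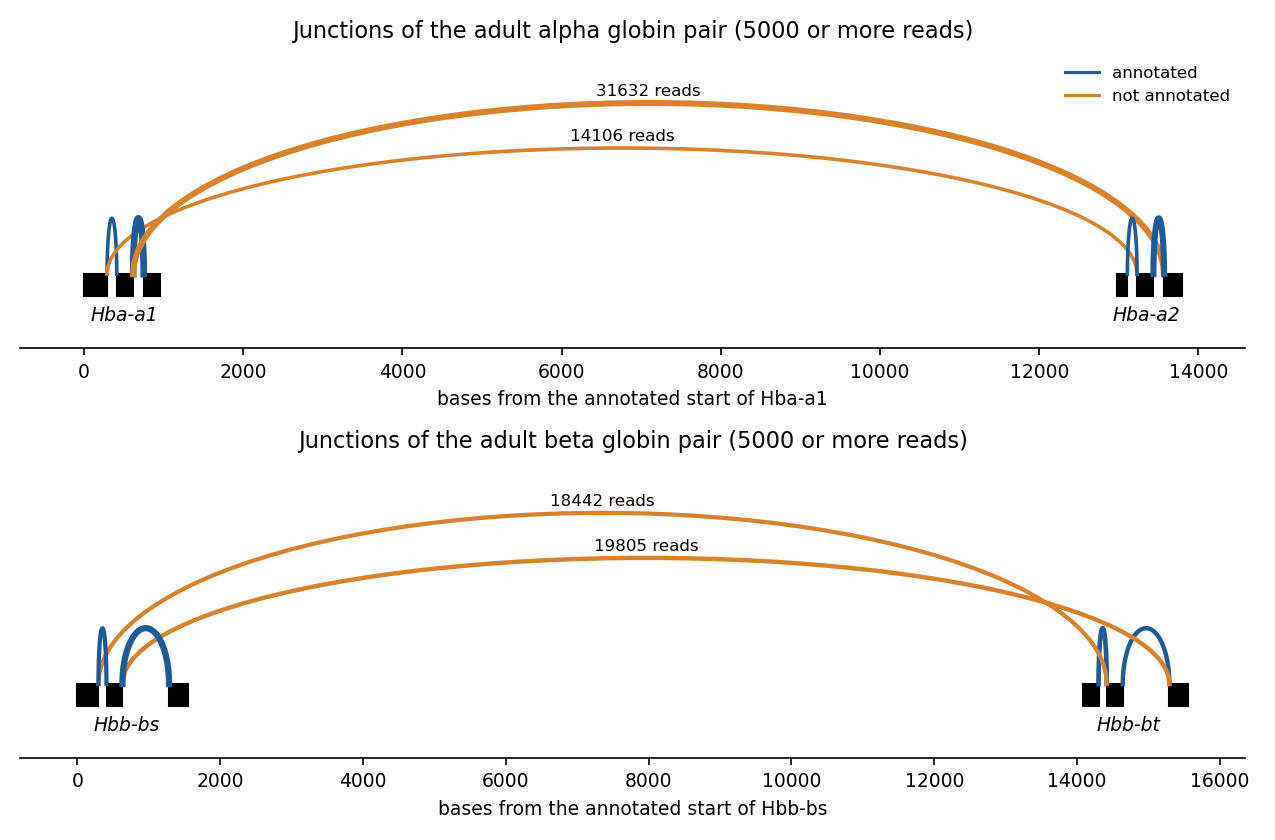
Junctions with 5000 or more reads over the adult alpha pair (top) and the adult beta pair (bottom), drawn against distance in bases from the annotated start of the first gene. Boxes are exons, blue arcs annotated introns and orange arcs unannotated junctions between the copies, with line width by reads; the 4 joining arcs carry 14106 to 31632 reads.

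Beyond the coding base, the annotated ends of the alpha copies differ. The Hba-a1 transcript starts 161 bases ahead of the point where the Hba-a2 transcript starts, and the Hba-a2 transcript runs 16 bases further at its end. Over the 538 bases they share, C381T was the one difference. The mm9 contigs, stretches of continuous read coverage with the authors' signal level, gave the 161 leading bases a mean signal of 0.304 and the rest of that exon 1.56. In the same file exon 2 of Hba-a1 had a signal of 70.8 and the identical exon 2 of Hba-a2 had 1.96, so for this pair contig signal followed neither the mm9 RPKM nor the TPM. For the beta pair the mean contig signal over all exons of Hbb-bs was 4.60 times that of Hbb-bt, between the TPM ratios of the libraries. By exon there was no single ratio: Hbb-bs had 11.6, 129 and 205 in exons 1 to 3, and Hbb-bt 44.9, 20.3 and 9.29. The closeness to TPM thus held for the mean only.

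The transcript table divided Hba-a1 further. Its coding transcript (ENSMUST00000093209) was at 279 and 216 TPM, and a transcript annotated as keeping part of intron 1 (ENSMUST00000142555) was at 259 and 130 TPM, or 48.2% and 37.6% of the gene. The matching transcript of Hba-a2 (ENSMUST00000147010) took 0.01% and 0.02% of that gene. In the mm9 table both kept-intron transcripts had values, 55.5 and 31.9 RPKM for that of Hba-a1 and 33.4 and 21.1 RPKM for that of Hba-a2. Of the 113 intron bases that set the Hba-a1 transcript apart, mm9 contigs covered 4.42% with a mean signal of 2.52 over all 113, and of the same bases in Hba-a2 they covered 13.3%. The kept-intron transcript of Hbb-bs (ENSMUST00000131960) was at 72.6 and 162 TPM, or 7.33% and 18.2% of the gene, with contigs over 2.99% of its 67 kept bases and a mean signal of 3.85. Most of those intron bases thus had no contig, and the signal came from the few that did. Hbb-bt had a single annotated transcript.

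The embryonic globins were close to or at the limit of detection. Hbb-y (ENSMUSG00000052187, chr7:103851749-103853216), the main embryonic beta-like chain, was at 1.35 and 0.74 TPM from 37 and 31 expected fragments. Adult beta globin exceeded it 901-fold in replicate 1 and 1454-fold in replicate 2. Both of its introns were spliced in the mm9 junctions, with 27 and 13 reads at the second intron and 15 and 18 at the first. Contigs covered 93.3% of its exon bases and 0.359% of its intron bases. Hbb-y RNA was therefore present as spliced message at a low level.

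Hba-x (ENSMUSG00000055609, chr11:32276400-32278116), the embryonic alpha-like chain, had 6 and 3 expected fragments, or 0.17 and 0.06 TPM. Its annotated junctions had 15 and 2 reads in the mm9 file. Unannotated junctions led from Hba-x to Hba-a1, with 1 and 11 reads, and to Hba-a2, also with 1 and 11. Hbb-bh1 (ENSMUSG00000052217, chr7:103841637-103843164), the other embryonic beta-like chain, had 0 fragments in both libraries. A count of 0 allows up to 3 fragments, which here is 0.122 TPM in replicate 1 and 0.0799 TPM in replicate 2. No junction within Hbb-bh1 had a read, and the mm9 table listed it at 0.0474 and 0.0338 RPKM. A contig with a signal of 0.13 covered 92.8% of its exon 2, and its other exons had none. Unannotated junctions led from Hbb-bh1 to Hbb-bs, with 2 and 7 reads, and to Hbb-bt, with 0 and 5. Together the 3 embryonic genes made up 0.0507% and 0.0355% of globin TPM, and 0.0494% and 0.0386% of globin RPKM on mm9. A few unannotated junctions led to adult genes from other beta-like sequence, Hbb-bh3, which lies between Hbb-bs and Hbb-bh1. From Hbb-bh3, 136 and 196 reads led to Hbb-bs, and 26 and 31 to Hbb-bt.

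Alas2 (ENSMUSG00000025270, chrX:150547375-150570638) was the one member outside the globins above 1 TPM in both libraries, at 3.98 and 3.07 TPM (3.52 ± 0.643, SD, n = 2) from 414 and 504 fragments. Adult globin exceeded it 752-fold and 734-fold. Its main coding transcript (ENSMUST00000066337) took 86.7% and 86.9% of the gene on mm10. In the mm9 table it took 73.6% and 28.8% of the RPKM, so the lead of that transcript depends on the table. All 11 exons of that transcript lay under mm9 contigs, with signals from 0.14 in exon 1 to 2.01 in exon 10, and its 10 introns had from 27 to 96 junction reads over both replicates. Alas2 is the erythroid counterpart of Alas1, which most tissues use for the same step, and Alas1 stood at 45.2 and 41.9 TPM here.

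All 9 genes listed for haem synthesis, the pathway that makes the iron-holding group of haemoglobin and of many other proteins, were at 1 TPM or more in both libraries. Ppox, the enzyme that makes protoporphyrin, was at 53.2 and 52.2 TPM, and Alad, the second enzyme of the pathway, at 40.2 and 30.8 TPM. Urod was at 32.7 and 31.9 TPM and Uros at 30.6 and 32.0 TPM. Fech, which inserts the iron, was at 19.5 and 18.9 TPM and Cpox at 7.93 and 7.80 TPM. Alas2 was thus the lowest of the 9. Alad differed most between the libraries, with a ratio of replicate 2 to replicate 1 of 0.781 (counting interval 0.740 to 0.824), and Uros had the highest ratio, 1.06 (1.01 to 1.11).

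Slc4a1 (ENSMUSG00000006574, chr11:102348824-102366203) was at 0.19 and 0.20 TPM from 50 and 78 fragments. The interval that the authors' table gives for its TPM, 0.275 to 2.83 in replicate 1, lay above that value. Its 18 annotated junctions with reads held 39 and 47 reads in all, and contigs covered 85.9% of its exon bases and 1.98% of its intron bases. Alas2 exceeded Slc4a1 20.9-fold and 15.3-fold in TPM, and 12.4-fold and 13.1-fold in mm9 RPKM. Slc4a1 message was thus spliced and low.

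Among the 19 genes listed for the red cell membrane and its skeleton, 10 were at 1 TPM or more in both libraries. The highest were the skeleton genes Add2 (99.1 and 86.0 TPM), Dmtn (50.2 and 45.0 TPM) and Epb41 (50.1 and 49.1 TPM), which brain cells also use. Ank1, an ankyrin gene also used in neurons, was at 8.98 and 12.9 TPM. Of the genes listed as markers of red cells, Epb42, a gene of the membrane skeleton, was at 0.06 and 0.05 TPM. Gata1, the leading erythroid transcription factor, was at 0.03 TPM in both, and Klf1, which drives adult beta globin, at 0.36 and 0.25 TPM. Adult globin message therefore stood between 185 and 1241 TPM per gene while these 3 markers stood under 0.4 TPM.

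For the other erythroid lists, 5 of the 10 listed transcription factors passed 1 TPM in both libraries, led by the cofactors Ldb1 (234 and 197 TPM) and Lmo2 (22.7 and 23.1 TPM) and by Tal1 (8.04 and 9.27 TPM), with Gfi1b lowest at 0 and 0.02 TPM. All 11 iron handling genes passed, led by the ferritin chains Ftl1 (1403 and 1245 TPM) and Fth1 (934 and 789 TPM) and the transferrin receptor Tfrc (45.1 and 47.7 TPM), with Steap3 lowest at 2.42 and 2.93 TPM. Of 20 other red cell genes found, 13 passed. Prdx2, a peroxidase abundant in red cells and neurons, was highest at 539.7 and 559.5 TPM, before Mkrn1 (130.2 and 119 TPM) and Bnip3l (126 and 115 TPM), and Sec14l4 was lowest at 0.02 and 0.03 TPM. Over these lists and the haem and membrane lists together, 48 of the 69 genes found were at 1 TPM or more in both libraries, and of the 9 members 5 were. Among all genes this share was 34.2%. Many of the listed genes are also used by neural cells, so these counts do not measure blood.

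Of 9 genes listed for the switch from embryonic to adult globin, all were detected in both libraries. Mbd3 was at 168 and 155 TPM, Bcl11a, a repressor of embryonic and fetal globin in red cells and also a gene of cortical neurons, at 83.6 and 59.4 TPM, and Chd4 at 54.3 and 50.7 TPM. Myb was lowest, at 3.99 and 3.45 TPM. The cells these came from were not determined.

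Between the libraries, the globins differed in a graded way, measured as the ratio of replicate 2 to replicate 1 in counts per library size (CPM) scaled by edgeR's TMM method with a prior count of 1. Hba-a1 had a ratio of 0.686 (95% counting interval 0.669 to 0.703) and Hba-a2 of 0.678 (0.667 to 0.690). Hbb-bs had a ratio of 0.867 (0.855 to 0.879) and Hbb-bt of 0.831 (0.805 to 0.859). The alpha copies thus had like ratios, and the intervals of alpha and beta did not overlap. Hbb-y had a ratio of 0.565 (0.333 to 0.920), Alas2 of 0.808 (0.708 to 0.922) and Slc4a1 of 1.03 (0.716 to 1.51). Hba-x and Hbb-bh1 had too few fragments for a ratio.

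Of the 7 members with a ratio, 6 were lower in replicate 2, against 49.5% of the 18677 genes that passed the filter on low counts. The 6 include both adult pairs, whose copies share many read-length stretches, so they are not separate observations. In these scaled counts only Hbb-y was at least 1.5-fold lower, a change that 2.73% of those genes passed. As a ratio of TPM with a pseudocount of 1 it was instead Hba-a1 that passed this limit, at 0.643, while Hbb-y was at 0.740. The median log2 ratio was -0.31 over the 7 members and 0.00 over all the genes. With 1 library on each side, these values compare 2 libraries and have no replicate check.

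In the mm9 table the second value was lower than the first for 8 of the 9 members, against 44.2% of the 22229 genes above 0 in both values. The 8 include both adult pairs of near-identical copies. They also include Hbb-bh1, with 0 fragments on mm10, and Hba-x, with 6 and 3, too few for a ratio there. The mm9 ratios were 0.682 for adult alpha and 0.896 for adult beta, beside 0.681 and 0.861 from the mm10 counts. Those values are not tied to a library by name. Their order followed that of the mm10 replicates for Ppbp (184 and 0.38 TPM, 21.8 and 0.0473 RPKM). The same held for Ttr (427 and 1389 TPM, 43.1 and 141 RPKM). Alas2 had 0.425 and 0.440 RPKM, the opposite order to the globins within the mm9 table. On mm10 it had 3.98 and 3.07 TPM, the order of the globins. Slc4a1 had 0.0342 and 0.0334 RPKM. The larger difference of alpha than of beta was thus in both tables, which were made from the same RNA and are no independent evidence of each other.

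**Figure D4:**
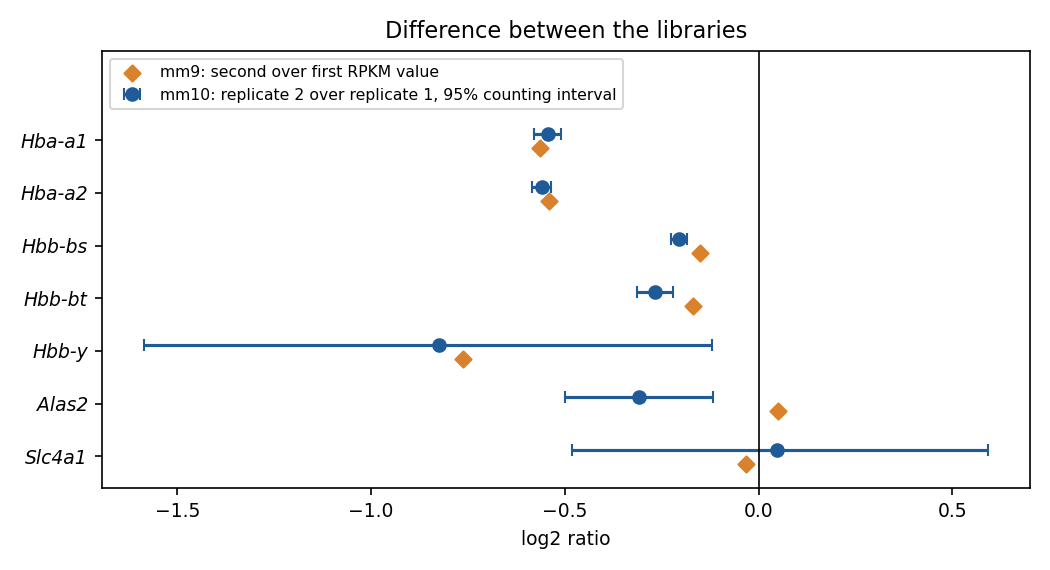
Log2 ratio between the libraries (horizontal axis) for the 7 genes with 20 or more fragments: circles are replicate 2 over replicate 1 on mm10 with 95% counting intervals, diamonds the second over the first RPKM value on mm9. Hba-a1 and Hba-a2 lie at -0.54 and -0.56, Hbb-bs and Hbb-bt at -0.21 and -0.27, and on mm9, whose values are not tied to a library, the alpha copies again lie further from 0 than the beta copies.

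Genes of other blood and vessel cells did not share 1 pattern with the globins. Of all genes past the filter on low counts, 49.5% were lower in replicate 2, and the list counts here stand beside that share. In the endothelial list, 8 of 12 genes were lower in replicate 2 with a median log2 ratio of -0.06. Its highest genes were Cldn5, a tight junction gene (108 and 103 TPM), the glucose transporter Slc2a1 (74.8 and 60.2 TPM) and Esam (26.4 and 23.8 TPM), and its lowest was Tek (5.53 and 5.62 TPM). The microglia and macrophage list had 8 of 12 lower and a median of -0.10, with C1qb at 24.7 and 23.9 TPM, C1qc at 19.2 and 16.0 TPM and P2ry12 lowest (2.96 and 2.69 TPM). The summed level was 324 and 302 TPM for endothelium and 144 and 139 TPM for microglia and macrophages.

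In the platelet and megakaryocyte list, 7 of 9 genes past the filter were lower, against 49.5% of all genes past it, with a median of -0.11. Ppbp, a platelet chemokine, was at 184 and 0.38 TPM, while Gp1bb was at 27.5 and 25.9 TPM and Pf4, another platelet chemokine, at 21.4 and 17.8 TPM; Gp6 was lowest at 0.02 and 0 TPM. The summed level of that list was 244 and 56.6 TPM, and 60.2 and 56.2 TPM without Ppbp. Of the neutrophil genes past the filter, 4 of 6 were at least 1.5-fold higher in replicate 2, against 6.31% of all genes past the filter, among them Mmp9 (6.63 and 14.6 TPM), S100a9 (2.58 and 11.7 TPM) and S100a8 (1.32 and 8.55 TPM), with a median of 1.67 and Elane lowest at 0.05 and 0.03 TPM. The list did not move as 1, since Lcn2, named after its values were seen, was at 6.91 and 0.85 TPM, a ratio of 0.126. The part of these cell types in the globin difference was not tested.

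The 5 erythroid lists together had 31 genes lower and 26 higher among 57 past the filter, with a median log2 ratio of -0.03, 1 gene at least 1.5-fold lower and 4 at least 1.5-fold higher. Over all genes past the filter, 49.5% were lower, 2.73% at least 1.5-fold lower and 6.31% at least 1.5-fold higher. The lowest of their 5 medians was -0.08. The members, which share 1 gene with the haem list and 1 with the membrane list, had -0.31.

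**Figure D5:**
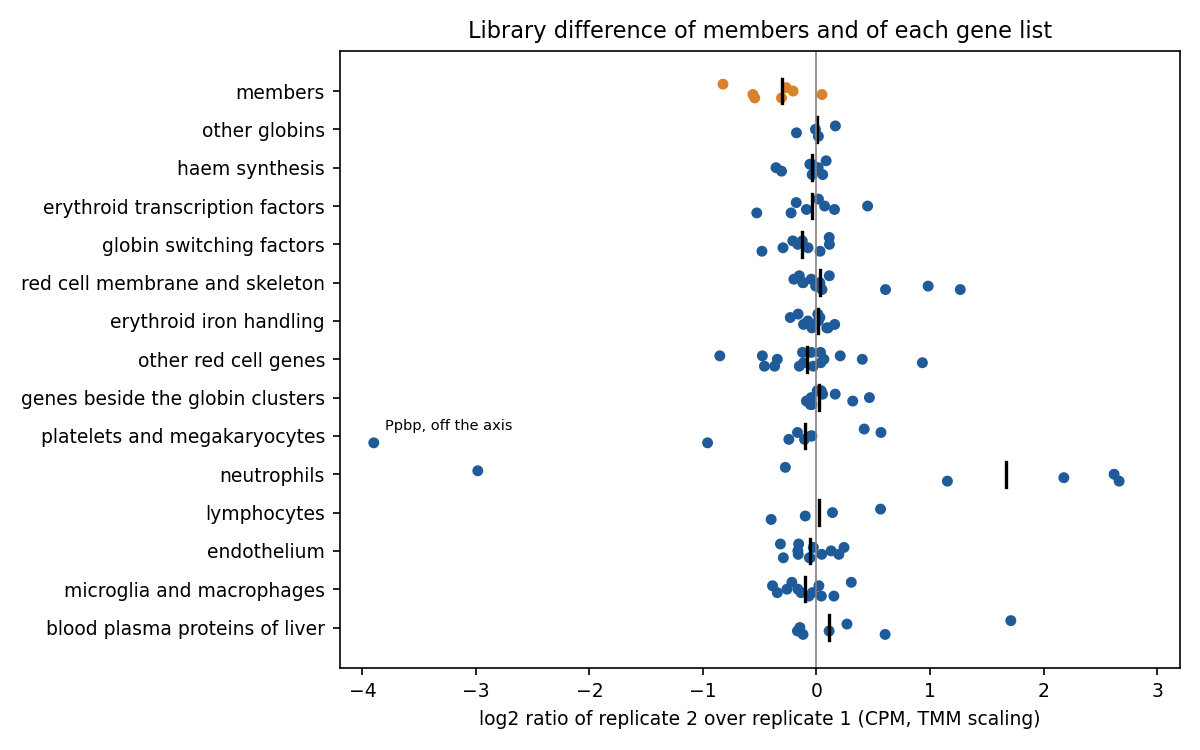
Log2 ratio of replicate 2 over replicate 1 (horizontal axis) for each gene past the filter on low counts, by gene list, with the 7 members on top in orange and black bars at the medians. The members' median is at -0.31, the erythroid lists' medians lie between -0.08 and 0.03, and neutrophil genes have a median of 1.67; Ppbp, at -8.86, is drawn at the left edge.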

How the data were processed

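Polyadenylated RNA over 200 nucleotides was sequenced as stranded pairs of 101 bases, per the labels. The deposited mm10 tables were made with GENCODE M4, as the read-me texts state, and hold the authors' expected counts, TPM, FPKM, posterior SDs and transcript percent values, from a quantifier not given in the sources used here. Further deposited tables on mm9 hold the authors' RPKM (Ensembl 65, per the file headers), counts of junction reads and contig signal of unstated scaling. Each mm9 gene was used once, as its lines repeat the same values. Entries that are no mouse gene (3.62% and 4.01% of expected counts) were left out of library sizes. Expected counts were rounded; TMM factors came from edgeR 4.0.16 on the 18677 genes passing filterByExpr. Library ratios were tested on simulated data for 43346 genes with 200 changed, where medians were within 0.012 of the log2 change put in. Intervals are exact binomial (SciPy 1.17.1). Positions and transcript sequences are from GENCODE M21 on GRCm38; the deposited tables hold another version of the Hbb-bs transcript (778 bases, against 628). Named genes are the 9 members, all haem synthesis genes, the 3 highest and the lowest by mean TPM of each list; listed red cell markers, neural markers and single examples were named beside them with their values known; some genes this rule names are not reported here. The members and the 14 lists were chosen with earlier results of these data known. Alternatives were FPKM, expected counts or mm9 RPKM as unit, DESeq2 1.42.0 size factors, no scaling, other prior counts, pseudocounts and detection limits, no filter, and leaving out each library. De novo transcript models on mm9 were not used. Protein identity was not analysed here.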

Additional observations from a re-analysis of the deposited data

How the results depend on the processing

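No paired analysis was possible because there is 1 group. Of 174 values recomputed under an alternative, 136 stayed within their spread, counting interval, 1% (mm9 ratios) or 1.5 times the count. The 136 include levels and compositions with 1 library left out, which for n = 2 always fall within the SD of the mean. Those values are no evidence of stability. The alpha to beta ratio (mean 1.28) reversed to 0.875 in expected counts, which carry no length correction. The ratio of Hba-a2 to Hba-a1 (2.35) was 2.03 in expected counts and 1.02 in mm9 RPKM, and that of Hbb-bs to Hbb-bt (4.62) was 5.03 and 1.88. The adult globin sum of 2623 TPM is 1628 in FPKM. Without scaling beyond library size, the ratios between libraries were 0.704 for adult alpha, 0.890 for adult beta and 0.798 for both together (0.681, 0.861 and 0.772 with TMM); as TPM with a pseudocount of 1 they were 0.661, 0.885 and 0.752. The cause was not tested, except that FPKM is another unit. Leaving out replicate 1 or 2 gave 2252 to 2995 TPM for the adult globin sum, 1.09 to 1.46 for alpha to beta, 2.31 to 2.40 for Hba-a2 to Hba-a1 and 4.41 to 4.82 for Hbb-bs to Hbb-bt. Depth limits Hba-x and Hbb-bh1, which held at most 6 fragments, and Slc4a1, whose counting interval spans 1.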

Other observations

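Other globins were measured in the same libraries. Cygb, cytoglobin, a globin of fibroblasts and some neurons, was the highest at 20.7 and 20.5 TPM. Ngb, neuroglobin, was at 4.81 and 5.29 TPM. Of the theta-like globins of the alpha cluster, Hbq1b was at 6.87 and 5.86 TPM and Hbq1a at 2.46 and 2.47 TPM. Hbb-bh2 had no fragment in either library. The counting intervals of these 4 detected genes all included a ratio of 1, and the ratios of replicate 2 to replicate 1 ran from 0.885 for Hbq1b to 1.12 for Ngb. Unannotated junctions from Hbq1b to Hba-a2 held 11 and 35 reads. Mb, the muscle globin, had 5 and 59 fragments (0.11 and 0.78 TPM), a gene chosen after its values were seen.

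Genes listed as neighbours of the globin clusters had levels of their own. Next to the alpha cluster, Nprl3, whose introns hold the alpha globin enhancers, was at 57.5 and 53.6 TPM. The other 2 of the highest listed genes, Luc7l (90.3 and 86.7 TPM) and Polr3k (42.9 and 42.5 TPM), lie on chromosomes 17 and 2 in the mouse and are no neighbours of its clusters. On chromosome 7, the 4 olfactory receptor genes found had no fragment, Olfr69 among them, while genes further out were expressed, such as Stim1 at 13.8 and 14.2 TPM and Trim34a at 1.74 and 2.42 TPM. In the list as a whole, 9 of 15 genes passed 1 TPM in both libraries, and no gene past the filter differed by 1.5-fold or more.

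Among lymphocyte genes none of 10 reached 1 TPM in both libraries; Cd79b was highest at 0.44 and 0.64 TPM, before Cd79a (0.40 and 0.44 TPM) and Cd4 (0.13 and 0.10 TPM), and Cd8a was at 0. Of plasma protein genes of the liver, Ttr, which the choroid plexus also makes, was at 427 and 1389 TPM, Trf at 9.30 and 8.61 TPM and Apoa1 at 2.61 and 2.34 TPM, while Serpina1a was at 0 and 0.05 TPM.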
